A study of Arabidopsis thaliana with 6 samples.

Results

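The chromosome 5 pericentromere of Arabidopsis thaliana was taken as the loci from AT5G28145 to AT5G35299 by name. Of the 29670 loci with array values, 649 met this rule, which uses names and no measured value. RNA was compared between 2 genotypes with 3 arrays each. Col is the reference accession. epiRIL12 is 1 epigenetic recombinant inbred line. Some lines of this type are known to come from a cross of Col with a mutant in MET1. With 1 line, effects of the line and of lost methylation cannot be told apart. Plants of either genotype had an age of 14 days and long-day light without treatment, per the labels, which name no transgene or agent. The labels call the material whole seedlings in one field and rosette leaves in another. Nothing in them says that the 3 samples of a genotype were grown separately, so each p-value reflects spread among these samples only, which may be technical.

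Pericentromeres are the stretches beside the centromere. In Arabidopsis they are packed as heterochromatin and filled with transposons, repeats and their decayed copies, among which a few ordinary genes are scattered. MET1 copies CG methylation onto new DNA strands after replication and so keeps such repeats silent through cell divisions. A plant that inherits segments from a met1 parent can pass on lost methylation, with the repeats in it active, although its own MET1 gene works. Crossovers are rare in pericentromeres, and the series title asks how lost methylation bears on the recombination landscape.

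The loci had the makeup of a pericentromere. Of the 649, 492 were annotated as pseudogenes and 36 as transcribed pseudogenes, together 81.4% against 14.0% of all loci, and 115 were protein-coding. The gene table has no class for transposable elements, so the pseudogene classes here may hold repeats and decayed genes alike. The other 6 loci were non-coding RNA genes. The 5 leaf markers (RBCS1A, RCA, CAB1, CAB2 and CAB3) lay between 14.5 and 15.4 on the log2 scale in both genotypes. Markers of root hairs, seeds and flowers lay between 4.98 and 7.00, and no marker of any tissue was called different. The median of all loci in Col was 6.79. In bulk samples fewer cells of a type and less RNA per cell cannot be told apart.

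Some pseudogenes of this pericentromere had more RNA in epiRIL12, and none of its protein-coding genes was called. In epiRIL12, 30 of the 649 loci were called higher and 1 was called lower, by limma with an adjusted p (Benjamini-Hochberg, over all loci) under 0.05. The background was 0.89% of all loci called higher and 0.0843% called lower. The 30 rises were 4.62% of the 649 loci and 11.4% of the 264 rises on the arrays. Each of the 30 was annotated as a pseudogene, which makes 6.10% of the 492. Of the 528 loci of both pseudogene classes 5.68% rose, near the share of these classes over all loci (237 of 4145, 5.72%). No transcribed pseudogene (of 36) and no protein-coding locus (of 115) was called in either direction. Over all loci 27 of 25166 protein-coding loci were called higher (0.107%) and 18 lower, so 0 of 115 is near that share. At an unadjusted p under 0.05, which 3.32% of all loci met as higher and 3.72% as lower, 93 of the 649 were higher and 16 lower. Among them 0 transcribed pseudogenes were higher and 3 lower, and 1 protein-coding locus was higher and 3 lower. The median rise was 5.07-fold (log2 2.34), close to that of all 264 rises (log2 2.44). At least 2-fold rises numbered 27, at least 4-fold 18, at least 8-fold 8 and at least 16-fold 3. The number of rises was 15 with both arrays numbered 3 left out, 17 at an adjusted p under 0.01, and 9 when the p-values of the authors' deposited table were adjusted in place of those of limma. In the authors' deposited table all 30 had the same sign and an unadjusted p under 0.05. That table rests on the same 6 arrays by which the 30 were called, so this is no independent support.

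**Figure D1:**
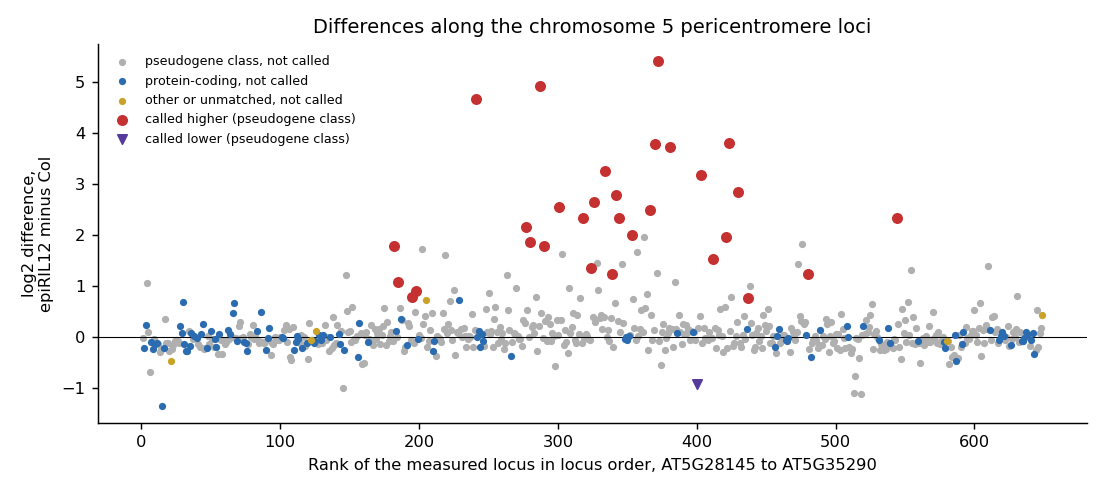
Difference in log2 level between epiRIL12 and Col (y axis) for the 649 loci in locus order (x axis, rank), with 1 point per locus coloured by class. The 30 red points (called higher) crowd the middle of the order, the first 181 loci hold none, and the blue protein-coding points lie between -1.34 and 0.73.

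The 3 strongest rises exceeded 16-fold. AT5G32517 stood at log2 levels of 5.14, 5.42 and 4.97 on the Col arrays and at 10.7, 10.5 and 10.6 on the epiRIL12 arrays. This was a 42.6-fold difference (log2 5.41, SE 0.14, limma adjusted p = 1.46e-05), the ninth largest rise on the arrays. AT5G31838 stood at 6.90, 5.98 and 6.01 in Col and at 11.3, 11.1 and 11.3 in epiRIL12 (log2 4.93, SE 0.25, limma adjusted p = 0.000177). Its epiRIL12 values were nearly equal, and Col replicate 1 lay above the other 2 Col arrays. AT5G30480 stood at 4.80, 4.40 and 4.93 in Col and at 9.08, 9.41 and 9.63 in epiRIL12 (log2 4.66, SE 0.19, limma adjusted p = 7.4e-05). The annotation gives no name or family to these 3 pseudogenes, and the groups are far apart at each of them.

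A further 5 loci rose by at least 8-fold. AT5G33000 went from 5.15 ± 0.08 (SD, n = 3) to 8.96 ± 0.20, with the tightest Col values of the 8 strongest rises. AT5G32566 went from 5.73 ± 0.32 to 9.46 ± 0.28 and AT5G32624 from 4.60 ± 0.34 to 7.77 ± 0.14. AT5G32306 went from 5.24 ± 0.67 to 8.49 ± 0.50. AT5G32515 was the most unsteady of the 30, at 8.18, 6.84 and 8.71 in Col and at 12.2, 11.1 and 11.7 in epiRIL12 (log2 3.78, SE 0.51, limma adjusted p = 0.0240). On both sides its replicate 2 was the lowest array, and the lowest epiRIL12 value still lay 2.39 above the highest Col value. Its call was lost with any of 4 single arrays left out and with both arrays numbered 3 left out.

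The other 22 rises ran from log2 0.78 at AT5G33220 to 2.85 at AT5G33150. AT5G33150 stood at 6.82, 6.54 and 7.03 in Col and at 9.62, 9.53 and 9.79 in epiRIL12. AT5G32423, AT5G32197, AT5G31963, AT5G32511, AT5G32107, AT5G34835, AT5G32431, AT5G31719 and AT5G32473 followed with differences from 2.79 down to 2.00. AT5G32950, AT5G31753, AT5G31855, AT5G29046, AT5G32726, AT5G32169, AT5G33391, AT5G32404 and AT5G29056 lay between 1.97 and 1.09. The 3 rises under 2-fold were AT5G29550 (0.91), AT5G29408 (0.79) and AT5G33220. AT5G33220 read 5.58, 5.52 and 5.40 in Col and 6.27, 6.27 and 6.29 in epiRIL12, with the smallest epiRIL12 SD of the 30 (0.0133). Its call was lost with any of 5 single arrays left out, and that of AT5G29550 likewise. For all 30 the lowest epiRIL12 value lay above the highest Col value.

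**Figure D2:**
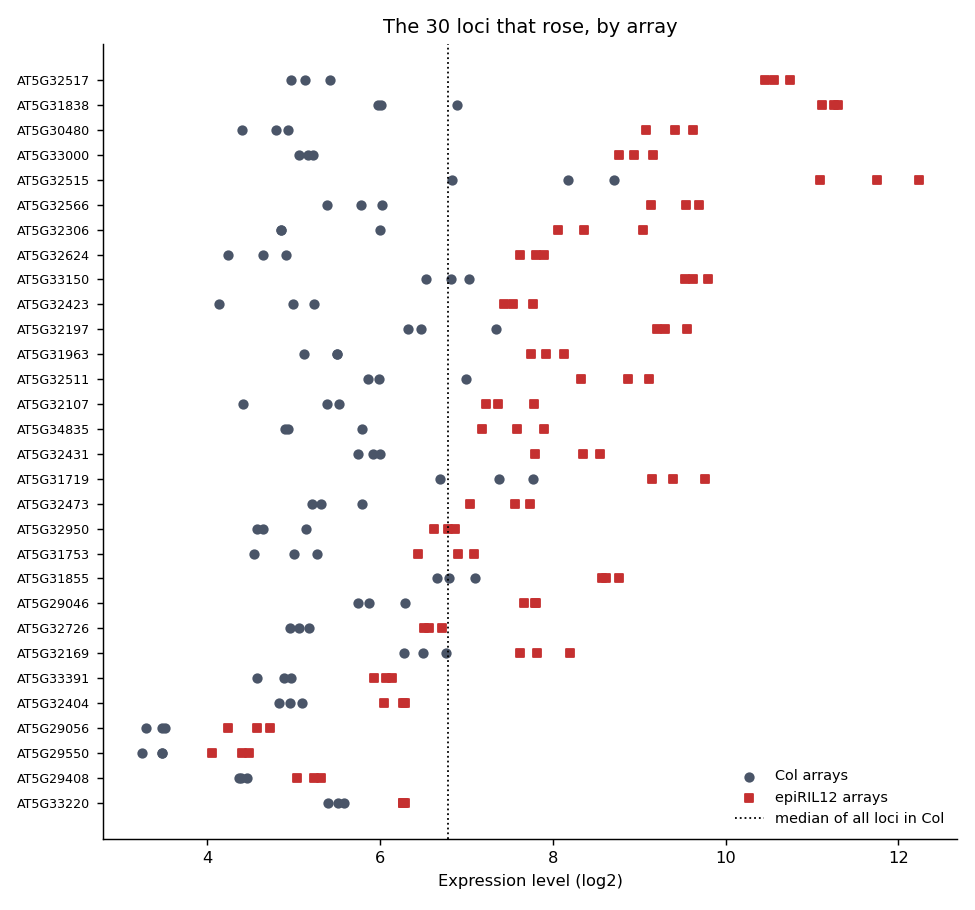
Log2 level (x axis) of the 30 loci that rose, sorted by size of difference from top to bottom, with 1 point per array (circles Col, squares epiRIL12) and a dotted line at the median of all loci in Col (6.79). The groups do not overlap at any of the 30 loci, and most Col points lie left of the line while 21 loci have epiRIL12 means right of the array medians.

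In Col most of these loci read low. The Col mean of 27 of the 30 lay below the lowest Col array median, and 5 of those lay below the lower quartile of the Col arrays (4.78 to 4.89). In epiRIL12, 21 had means above the highest array median of that genotype (6.84). Col means ran from 3.40 at AT5G29550 to 7.91 at AT5G32515, and epiRIL12 means from 4.31 to 11.7 at the same 2 loci. No background level was given, so a fold from a low reading is a difference of array values and may not be a ratio of RNA. Most rises lay among the pseudogene-class loci that read higher in Col. With the 528 loci split into 4 bins of 132 by Col mean, the number of rises was 2, 0, 9 and 19 from the lowest to the highest bin. These were 1.52%, 0%, 6.82% and 14.4% of the bins. Outside the region the pseudogene-class loci were split by their own Col means, so the bins had other edges and held 904 or 905 loci. They gave 6, 26, 69 and 106 rises (0.663%, 2.88%, 7.63% and 11.7%). Thus 28 of 30 rises here and 175 of 207 there were in the upper 2 bins. The difference between these shares was not tested.

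**Figure D3:**
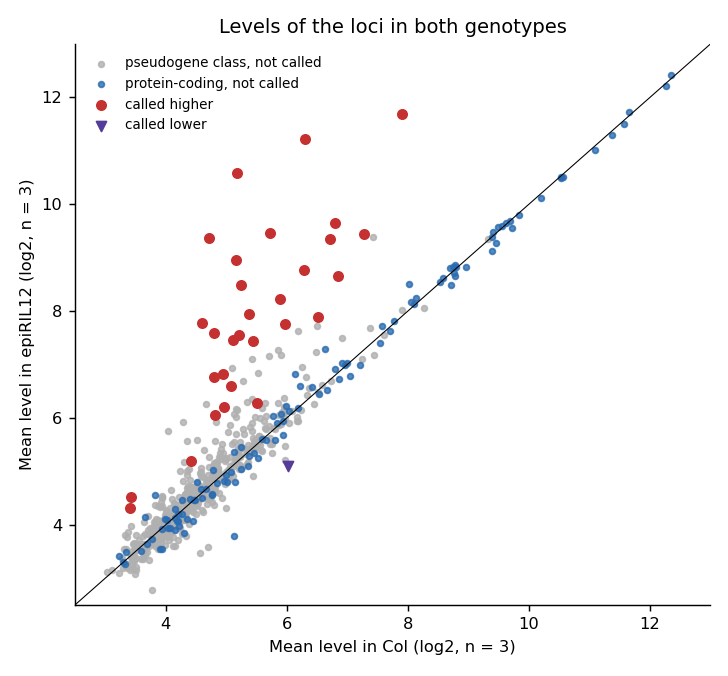
Mean log2 level in epiRIL12 (y axis) against Col (x axis), n = 3 arrays each, with 1 point per protein-coding or pseudogene-class locus and a line of equal level. Red points (called higher) leave the line at Col levels from 3.40 to 7.91, and the blue protein-coding points follow it up to the highest levels.

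Rises were unevenly spread over the locus order. The first was AT5G29046, after 181 measured loci of which 119 were pseudogene-class, and the last was AT5G34835, with 105 loci after it. Below locus number 30000, 4 of 150 pseudogene-class loci rose (2.67%). From 30000 to below 32000, 6 of 79 rose (7.59%), and from 32000 to below 34000, 19 of 187 rose (10.2%). From 34000 on, 1 of 112 rose (0.893%). The 111 such loci from 32000 to below 33000 alone held 15 of the 30 rises (13.5%). The 101 below 29000 held 0 in limma, with 3 higher at an unadjusted p under 0.05. These shares are descriptions, since neighbouring loci are not independent.

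Of the pseudogene-class loci without a call, 62 of 146 had a difference above 0 below number 30000 and 52 of 73 from there to below 32000. From 32000 to below 34000, 105 of 167 were above 0, and from 34000 on, 53 of 111. Over all loci 12874 of 29670 were above 0, with a median of -0.02. Over all pseudogene-class loci, called ones included, 2139 of 4145 were above 0, with a median of 0.008. In the 4 stretches the medians of the loci without a call were -0.03, 0.09, 0.07 and -0.01 on the log2 scale. All 3 epiRIL12 values lay above all 3 Col values at 97 of the 528 pseudogene-class loci, 30 of them called. This was 18.4% of them, against a background of 5.19% of all loci and 14.8% of all pseudogene-class loci. In stretches of chromosomes 1, 2, 3 and 4 where at least 50% of a window of 101 loci were pseudogene-class, the same share was 15.0%, 27.3%, 10.7% and 19.4%. The opposite order was found at 17 of them, against a background of 6.89%. None of the 115 protein-coding loci was higher without overlap and 6 were lower (5.22%). Over all protein-coding loci these shares were 3.67% and 7.11%.

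**Figure D4:**
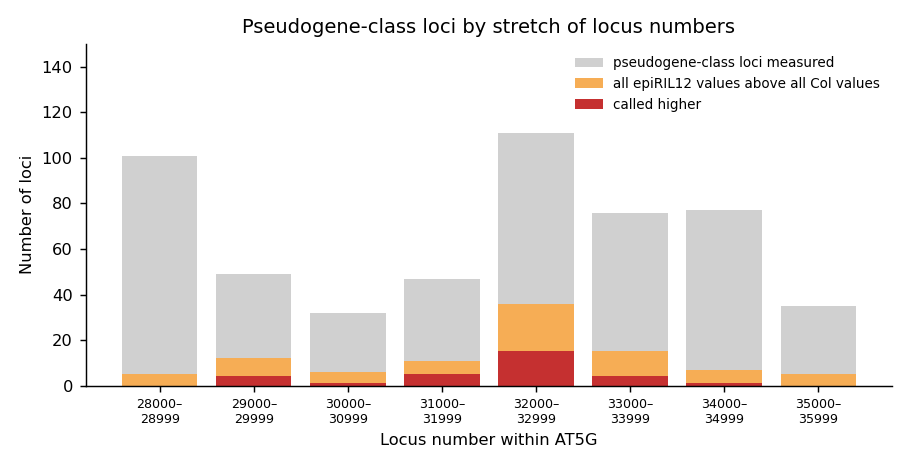
Number of pseudogene-class loci (y axis) per 1000 locus numbers (x axis; the outer steps hold only loci of the region). Grey bars give the loci measured, orange those with all epiRIL12 values above all Col values, and red, drawn in front and counted within the orange, those called higher. The red part is tallest from 32000 to below 33000 with 15 of 111 loci.

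At the call limit used, no 2 of the 30 rises were neighbours in the order of measured loci. Chromosomes 1 to 4 held 1, 32, 2 and 4 pairs of neighbouring rises among 20, 133, 34 and 44 rises, and no test of this difference was made. From 1 to 63 loci lay between successive rises (median 6), and the widest gap was from AT5G33391 to AT5G34835. There was 1 locus in 4 of these gaps, and 10 gaps held at most 3 loci. Other rises lay close to the strongest one. AT5G32511 rose by 2.49, AT5G32515 by 3.78 and AT5G32517 by 5.41, and AT5G32516 between the last 2 stood at 5.91 ± 0.46 (SD, n = 3) and 7.17 ± 0.20 (log2 1.26, limma adjusted p = 0.108). AT5G32514 and AT5G32518 on either side had differences of 0.15 and -0.07. The 30 rises had 56 direct neighbours, of which 51 were pseudogene-class with a median difference of 0.17 (34 above 0, none called in limma, 9 higher at an unadjusted p under 0.05). The 447 pseudogene-class loci that neither rose nor neighboured a rise had a median of 0.02 (238 above 0). Of all 497 pseudogene-class loci of the region without a call, neighbours included, 62 were higher at an unadjusted p under 0.05. From 32000 to below 33000, where 15 of the rises lay, the pseudogene-class loci without a call had a median of 0.11. Nearness to a rise and place within the region therefore cannot be told apart here.

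All 5 precursor genes of the MIR854 family lay inside loci of this pericentromere, and at each of the 5 host loci all epiRIL12 values lay above all Col values, as at 18.4% of the pseudogene-class loci of the region and 5.19% of all loci. miR854 is a small RNA of Arabidopsis that comes from retrotransposon sequence and is known to act on UBP1B, an oligouridylate-binding protein of stress granules. The hosts were chosen with their values known, because 3 loci already called higher overlapped a MIR854 gene in the gene table, so their count supports nothing further. AT5G32306, which holds MIR854e, stood at 4.85, 4.85 and 6.00 in Col and at 8.36, 8.06 and 9.04 in epiRIL12 (log2 3.25, SE 0.38, limma adjusted p = 0.0122). AT5G32197, which holds MIR854c, stood at 6.32, 6.47 and 7.34 in Col and at 9.21, 9.29 and 9.56 in epiRIL12 (log2 2.64, SE 0.27, limma adjusted p = 0.00644). Replicate 3 was the highest array of its genotype at both, in Col by about 1 on the log2 scale. AT5G31719, which holds MIR854d, stood at 7.37, 6.70 and 7.78 in Col and at 9.40, 9.15 and 9.77 in epiRIL12 (log2 2.15, SE 0.29, limma adjusted p = 0.0247). These were the 3 hosts that rose.

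The other 2 hosts did not pass the test. AT5G29975, which holds MIR854b, stood at 4.98, 4.74 and 4.24 in Col and at 6.22, 5.84 and 6.74 in epiRIL12 (log2 1.61, SE 0.28, limma adjusted p = 0.0737), and passed with a trended robust variance (adjusted p = 0.0427). AT5G32228, which holds MIR854a, stood at 5.92, 5.87 and 5.33 in Col and at 6.13, 7.65 and 7.70 in epiRIL12 (log2 1.45, SE 0.43, limma adjusted p = 0.460). Its epiRIL12 replicate 1 lay just above the Col arrays, and the other 2 lay well above them. Without that array the difference was 1.97 and passed the test (limma adjusted p = 0.0187). The calls of the 3 hosts that rose were lost at the adjusted values of the authors' deposited table (adjusted p = 0.259 for AT5G31719, 0.112 for AT5G32197 and 0.186 for AT5G32306). The call of AT5G31719 was lost with any of 4 single arrays left out, and that of AT5G32306 with any of 3. The arrays measured RNA of the host loci, and the small RNA itself was not measured. The hosts may share sequence, and signal from 1 copy on the probes of another was not tested. UBP1B (AT1G17370, on chromosome 1) had a Col mean of 10.3 ± 0.04 (SD, n = 3) and an epiRIL12 mean of 10.4 ± 0.17 (log2 0.12, SE 0.11, limma adjusted p = 0.938). These are RNA levels, and UBP1B protein was not measured.

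**Figure D5:**
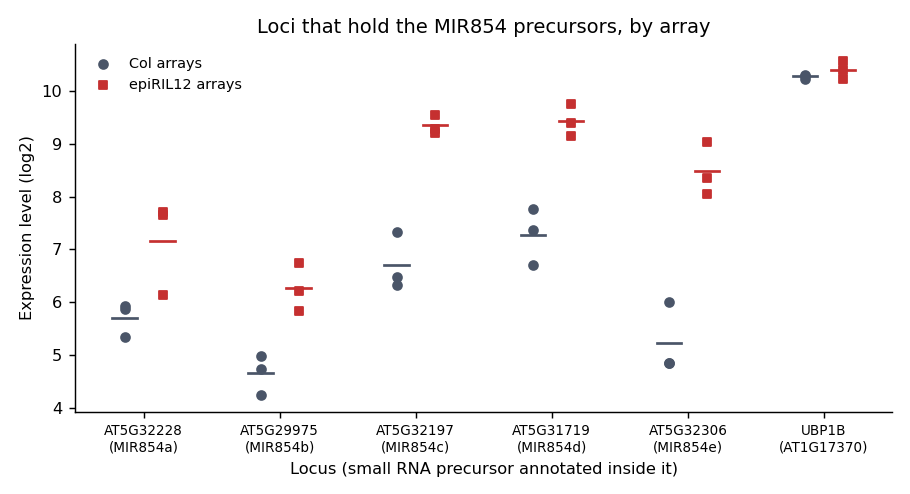
Log2 level (y axis) of the 5 loci that hold a MIR854 precursor and of UBP1B (x axis), with 1 point per array (circles Col, squares epiRIL12) and short lines at the means of 3 arrays. All squares lie above all circles at the 5 host loci, by the narrowest margin at AT5G32228, and they overlap at UBP1B.

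In 2 further rises the annotation overlapped another gene. AT5G32726 and AT5G32950 both overlap the transcribed pseudogene AT5G32690, which has no array value. AT5G32726 went from 5.07 ± 0.11 (SD, n = 3) to 6.60 ± 0.11 (log2 1.53, SE 0.10) and AT5G32950 from 4.79 ± 0.31 to 6.76 ± 0.12 (log2 1.97, SE 0.17). RNA of these loci and of AT5G32690 cannot be told apart here, and since double-stranded target was hybridised, neither can their strands.

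The 1 fall was at AT5G32621, a pseudogene that stood at 6.01, 5.90 and 6.16 in Col and at 5.03, 5.26 and 5.02 in epiRIL12 (log2 -0.92, SE 0.12, limma adjusted p = 0.0166). The groups did not overlap. AT5G32624, which is 3 measured loci further on, rose by 3.18. The call of AT5G32621 was lost under the replicate block (adjusted p = 0.130) and without Col replicate 1, Col replicate 3, epiRIL12 replicate 1 or epiRIL12 replicate 3 (adjusted p 0.0770 to 0.0923). The non-coding RNA gene AT5G28262, singled out after its value was seen, had a difference of -0.47 (limma adjusted p = 0.0762) and was the second called fall when the lowest 25% of loci were left out.

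Differences of 2-fold or more without a call were seen at 20 loci, 17 higher and 3 lower. The 4 largest were AT5G32489 (log2 1.96, SE 0.43), AT5G33387 (1.83, SE 0.52), AT5G29568 (1.73, SE 0.36) and AT5G32483 (1.68, SE 0.27), with limma adjusted p from 0.0557 to 0.413. AT5G32489 stood at 7.76, 6.50 and 8.03 in Col and at 8.87, 9.77 and 9.54 in epiRIL12, so its groups did not overlap but its Col arrays ranged widely. AT5G33387 stood at 7.28, 5.74 and 7.77 in epiRIL12, and its replicate 2 lay near the Col values of 5.53, 5.16 and 4.61. AT5G32483 passed the test when Col replicate 2 was left out, with a trended robust variance, and when the lowest 25% of loci were left out. The largest lower reading, at the protein-coding AT5G28235 (-1.34, SE 0.50, adjusted p = 0.646), came from Col values of 6.06, 5.35 and 3.98, which overlapped those of epiRIL12.

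The 115 protein-coding genes scattered through the same stretch had a median difference of -0.03, against -0.03 for all protein-coding loci. Of the 21 genes named whatever their values, 20 were protein-coding, with differences from -0.21 to 0.49 and adjusted p of 0.767 or more. CUE1, the phosphoenolpyruvate/phosphate translocator of the plastid envelope, had means of 11.09 ± 0.05 (SD, n = 3) and 11.02 ± 0.05 in Col and epiRIL12. The chloride channel gene CLC-G (AT5G33280) stood at 9.46 ± 0.04 and 9.28 ± 0.03, and its 3 epiRIL12 values lay below the 3 of Col (limma adjusted p = 0.767). XGD1, a xylogalacturonan xylosyltransferase of the cell wall, stood at 6.96 ± 0.53 and 6.99 ± 0.19. CDR1, an aspartic protease of disease resistance, stood at 4.46 ± 0.04 and 4.46 ± 0.25. These 4 lie between the rises AT5G33220 and AT5G33391 in locus order.

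On the low-numbered side BIP1, a chaperone of the endoplasmic reticulum, stood at 11.7 ± 0.05 (SD, n = 3) and 11.7 ± 0.08, and GME, which makes GDP-galactose for ascorbate synthesis, at 10.6 ± 0.02 and 10.5 ± 0.16. AN3, a growth coactivator of leaf cell proliferation, had the highest difference of the named genes (log2 0.49, SE 0.23, limma adjusted p = 0.772), from 7.86, 8.49 and 7.70 in Col to 8.74, 8.33 and 8.45 in epiRIL12, which overlap. The transcription factor genes BZIP63 (-0.21), PHL1 (-0.09) and WRKY74 (-0.02), the light-response gene LSH1 (0.12), the kinase gene NEK3 (0.08), FRS10 of the far-red response family (0.14), the beta-glucosidase gene BGLU24 (-0.19) and the receptor kinase gene ANX2 (0.01) were not called. On the high-numbered side the acid phosphatase gene PAP26 (-0.06), the glucuronidase gene GUS3 (0.10), OS9 of protein quality control (-0.05), the chloroplast protease gene EGY1 (0.09) and the chloroplast-bound PTM (-0.05) were not called. SADHU1-3, a retroposon of the Sadhu family and the only named repeat among the 21, stood at 6.51 ± 0.22 and 6.48 ± 0.20 (log2 -0.04, SE 0.15).

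Protein-coding genes directly beside a rise numbered 5, with differences from -0.03 to 0.17 and none called. AT5G30490 follows AT5G30480, the third strongest rise, and stood at 8.53 in Col with a difference of 0.01 (SE 0.10). AT5G33390 precedes AT5G33391 and stood at 8.58 with a difference of 0.05 (SE 0.15). SRS8 (AT5G33210), of the SHI-related family, precedes AT5G33220 and had a difference of 0.17 (SE 0.36). AT5G29050 and AT5G29560 completed the 5.

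Against other parts of the genome the pericentromere of chromosome 5 held an intermediate share of rises. On the rest of chromosome 5, 3 of 6125 loci rose (0.049%), of which 2 were among 290 pseudogene-class loci (0.69%). The 200 loci before the region held 0 rises (at an unadjusted p under 0.05, 2 higher and 8 lower), and the 200 after it held 1. At the border AT5G28143, just outside, had a difference of -0.37 and AT5G28145, just inside, -0.01, and at the other end AT5G35290 had 0.44 and AT5G35300, outside, -0.09. In the pseudogene-rich stretches of other chromosomes defined above, rises made up 3.3% of 333 such loci on chromosome 1, 14.5% of 571 on chromosome 2, 3.98% of 703 on chromosome 3 and 6.03% of 531 on chromosome 4. All 649 loci here met that definition, and 5.68% of their 528 pseudogene-class loci rose. The median difference of these 528 was 0.04, and that of the pseudogene-class loci in such stretches was 0.04, 0.08, 0.00054 and 0.04 on chromosomes 1, 2, 3 and 4. It was -0.04 for the pseudogene-class loci of the rest of chromosome 5. No test of these shares was made, since copies of one repeat are not independent.

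Genes that set, keep or remove the methylation and silencing of such repeats showed no called difference. Of 18 listed genes, all measured, 0 were called higher and 0 lower in limma, 2 were below an unadjusted p of 0.05, and the median difference was -0.01. Over all loci 0.89% were called higher and 0.0843% lower, so 0 calls among 18 genes is near the background. At an unadjusted p under 0.05, 3.32% of all loci were higher and 3.72% lower. For MET1 the Col mean was 9.03 ± 0.07 (SD, n = 3) and the epiRIL12 mean 8.99 ± 0.08. DDM1, a chromatin remodeller needed for methylation of heterochromatin, stood at 7.96 ± 0.17 and 7.98 ± 0.10. The 2 genes below that limit were NRPE1, a subunit of RNA polymerase V (-0.86, adjusted p = 0.0956), and the demethylase gene ROS1 (-0.37, adjusted p = 0.706).

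The Col arrays were not equally low at the loci that rose. Replicate 2 was the lowest Col array at 16 of the 30, replicate 3 at 12 and replicate 1 at 2. Over all 528 pseudogene-class loci these numbers were 162, 251 and 115. Medians over the 30 were 5.41, 5.19 and 5.23 on Col replicates 1, 2 and 3, and 8.01, 7.77 and 7.81 on the epiRIL12 arrays.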

How the data were processed

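Total RNA was depleted of ribosomal RNA, copied with random primers, amplified, biotin-labelled as double-stranded cDNA and hybridised to Affymetrix arrays, per the labels' protocols. For each array the authors deposited log2 expression values by locus. Their second table gives each locus a deposited p-value beside a log2 difference. Not given in the sources used here are the normalization and summarization, the test and the genome build.

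The value table numbers its loci without naming them, and names were joined by row order. Pearson's r across loci between the difference of group means and the authors' log2 difference was 0.967 in place and 0.166 shifted by 1 row. Classes, names and overlaps came from the RefSeq gene table of TAIR10.1, which matched all 649 loci (by an older name where needed), and its coordinates served only to find overlaps. Each locus was fitted with limma 3.58.1 in R 4.3.3 (genotype as the one factor, lmFit and eBayes, two-sided, no filter), adjusted over 29670 loci and called at an adjusted p under 0.05. Errors of means are SDs, those of differences moderated standard errors, and the number of arrays limits precision. The fit was tested on simulated data with independent normal errors. These data had no floor at low readings, no shared probes and no dependence between repeat copies. Python 3.11.15 with pandas 2.3.3 was used for counts.

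Named were the 30 largest called differences (AT5G33220, the smallest of the 31, was added), loci beside a call, the 4 largest differences without a call at an unadjusted p under 0.05, 21 genes whatever their values, and the silencing genes MET1 and DDM1. NRPE1, ROS1, the MIR854 hosts, UBP1B, AT5G28235, AT5G28262 and AT5G28560 were added after their values were seen. The region, the lists and the rules were chosen with earlier results of these data known. As alternatives, the fit was repeated after quantile normalization or median centring, with a replicate block, with a filter on low values, with a trended robust eBayes, with the authors' values, at other limits and with arrays left out.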

Additional observations from a re-analysis of the deposited data

How the results depend on the processing

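The number of loci that rose (30) was 27 under a replicate block, 31 after quantile normalization and 30 after median centring. It was 30 without the lowest 25% of loci, of which 27 were shared with the main fit. That filter uses the mean of all 6 arrays, so it can keep a locus for its epiRIL12 values alone. The number was 32 with a trended robust eBayes and 38 at an adjusted p under 0.10. It was 17 at 0.01, 15 without both arrays numbered 3 (14 of them pseudogene-class and 1 protein-coding, AT5G28560), 9 with the authors' deposited p-values, and 21 to 24 with any single array left out. Of the 30, 25 were shared under the block. Calls held under all 15 settings for 8 loci, AT5G32517, AT5G31838, AT5G30480, AT5G33000, AT5G32566, AT5G32624, AT5G33150 and AT5G31963, and 22 lost theirs under at least 1, with no change of sign. Among the settings, the limit of 0.10 could lose no call, and the filter could keep a locus for its epiRIL12 values alone. AT5G30480 and AT5G32624 had Col means of 4.71 and 4.60, under the lower quartile of the Col arrays (4.78 to 4.89). The number of falls (1) was 0 under the block, with the authors' values, without both arrays numbered 3 and at 0.01, 2 without the lowest 25% of loci and at 0.10, and 0 to 1 with single arrays left out. The median difference of pseudogene-class loci (0.04) was 0.20 without the lowest 25% of loci, where the filter on the mean of all 6 arrays can keep a locus for its epiRIL12 values alone, and 0.01 to 0.08 with single arrays left out. That of protein-coding loci (-0.03) was -0.04 to 0.00012. No protein-coding locus rose under the other settings. Deviations of same-numbered arrays correlated at -0.04, -0.07 and 0.13 across loci. These correlations cannot show whether same-numbered arrays share more than a number. Signal over background was not given and limits what can be said of low loci, and 3 arrays per genotype limit small differences.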
